A study of Mus musculus with 6 samples.

Results

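Nicotinic acetylcholine receptors are ion channels that open when acetylcholine binds, and each is a ring of subunits from a single gene family. Most alpha subunits contribute the main face of the agonist site and some beta subunits complete it. The mixture of subunits thus sets which receptors a cell can build. In brain, the receptor of alpha4 and beta2 subunits and the receptor made of alpha7 alone are the most widespread types. The 9 subunits described here are Chrna3, Chrna4, Chrna5, Chrna6, Chrna7, Chrnb1, Chrnb2, Chrnb3 and Chrnb4. They are a named list among the 19938 genes that the platform annotation names with exactly 1 symbol. The list was selected on subunit names with earlier values of the contrast between 1,25D and control known, so the values of that contrast are given as a description. For a gene with several rows, the brightest row on average was chosen by its intensity, but each of the 9 had 1 row.

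RNA of primary mouse brain cultures was copied into biotin-labelled cDNA and measured on 6 Affymetrix arrays. Brain cells of OF1 mouse embryos, taken at embryonic day 17, had differentiated with fetal calf serum into mixed neurons and glia and were then held in serum-free medium lacking growth factors. In 3 arrays the cultures had received 1,25-dihydroxyvitamin D3 (1,25D, the hormonally active form of vitamin D) at 10 nM, and in 3 arrays vehicle (control). The sources used here state neither how long treatment lasted nor how many embryos stood behind a culture. Values are RMA intensities, which are background-corrected and normalised summaries of a gene's probes. They are printed per array on the linear scale and compared as log2. RMA gives no detection call, so no value here says by itself whether a gene was expressed, and differences of dim genes are compressed. Intensities depend on the probes, so the subunits are not ranked by level against each other.

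Array medians over all genes lay between 240.8 and 252.9 in 1,25D cultures and between 240.4 and 251.0 in control cultures. Arrays with equal replicate numbers resembled each other beyond their group, since their deviations from group means correlated over all genes at 0.512, 0.645 and 0.457 for numbers 1, 2 and 3. The labels call the arrays biological replicates 1, 2 and 3 of each group. They say neither how the replicates were separated nor what equal numbers share, so a p-value reflects only the spread among these samples. Differences are therefore given over all arrays and also within equal numbers, called pairs. Of 8 astrocyte markers, 7 had means above the upper quartile of all genes, such as Gfap at 2265 to 4277 in 1,25D and 2052 to 3959 in control cultures. Of 8 neuron markers, 1 did, Map2, at 1108 to 1957 in 1,25D and 1590 to 2418 in control cultures. The other neuron markers lay lower, and Nefl was below the lower quartile.

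The alpha4 and beta2 genes supply the partners of 1 receptor and are described first below, so their start regions are shown. The windows from 250 bases before to 50 bases after the RefSeq gene start are printed 5′ to 3′. Chrna4 lies on chromosome 2 (GRCm38.p6, chr2:181039128-181039427, minus strand) and Chrnb2 on chromosome 3 (chr3:89764583-89764882, minus strand). Capitals mark the GC box GGGCGG and the half-sites AGGTCA and AGTTCA, letters bound by nuclear receptors such as the vitamin D receptor, on either strand.
Chrna4: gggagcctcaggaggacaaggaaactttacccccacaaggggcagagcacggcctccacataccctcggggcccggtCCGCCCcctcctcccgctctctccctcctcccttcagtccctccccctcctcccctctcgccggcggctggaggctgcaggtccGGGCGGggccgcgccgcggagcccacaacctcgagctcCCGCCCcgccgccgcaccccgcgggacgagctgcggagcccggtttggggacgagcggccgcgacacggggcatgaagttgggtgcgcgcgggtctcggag
Chrnb2: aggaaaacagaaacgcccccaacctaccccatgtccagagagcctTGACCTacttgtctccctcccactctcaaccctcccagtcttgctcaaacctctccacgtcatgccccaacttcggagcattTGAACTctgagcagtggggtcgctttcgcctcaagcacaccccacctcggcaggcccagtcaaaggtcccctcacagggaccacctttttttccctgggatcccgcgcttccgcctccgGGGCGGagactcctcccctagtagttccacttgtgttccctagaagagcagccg

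The Chrna4 window was 74.3% G and C, above 95.6% of the 32851 RefSeq promoter windows, whose median was 52.7%. It held 33 CpG dinucleotides, 3 GC boxes and neither half-site. The Chrnb2 window was 59.0% G and C, with 12 CpG dinucleotides, 1 GC box and 1 copy of each half-site. RefSeq windows were found for 7 of the 9 subunits, in 8 entries, since Chrna5 has 2 starts. Of the 8 entries, 6 held a GC box, against 35.7% of all windows. AGGTCA stood in 2 (16.3% of all windows) and AGTTCA in 2 (14.0% of all). The paired half-site arrangement known as the DR3-type vitamin D response element was in 0 of the 8 and in 0.0396% of all windows. No motif overlapped another in the 2 printed windows. These matches describe letters in short windows and do not show that any factor binds.

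None of the 9 subunits passed the test of 1,25D against control over all genes (limma, adjusted p under 0.05), without or with the replicate number as a block. Of all genes, the same test called 0.0251% without the block and, with the block, 0.0903%. At an unadjusted p under 0.05 the limma fit gave 1 of the 9, Chrna4, beside 1.48% of all genes. Chrna4 had the largest difference of the family and was lower in 1,25D cultures by 0.40 on the log2 scale, a fold of 0.760. The other 8 subunits had log2 differences between -0.08 and 0.19. The median of the 9 log2 differences was 0.058, beside 0.0074 over all genes. Above 0 were 6 subunits and below 0 were 3, while 10563 of all 19938 genes were above 0. After quantile normalisation the median of the 9 was 0.016.

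**Figure D1:**
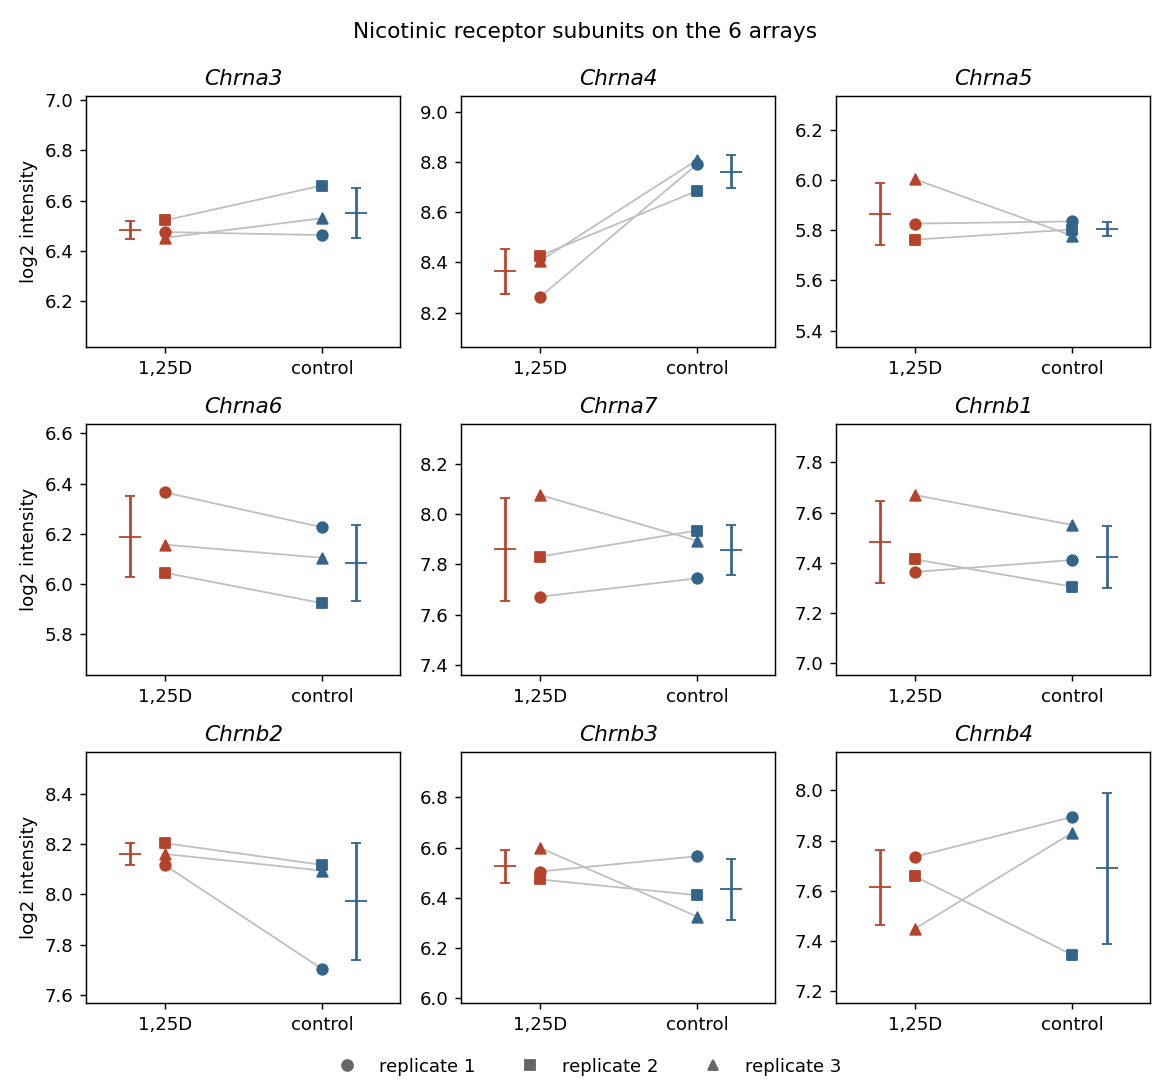
Log2 intensity of each subunit (vertical axis) in 1,25D cultures, left, and control cultures, right. Marker shapes give replicate numbers, grey lines join equal numbers, bars show mean ± SD (n = 3 each), and every panel spans 1 log2 unit; the 2 groups stand apart for Chrna4 and overlap for the other 8 subunits.

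Chrna4 encodes alpha4, which with beta2 forms the high-affinity nicotine receptor of brain. Its intensity was 307, 344 and 339 in 1,25D cultures 1 to 3, against 443, 412 and 448 in control cultures 1 to 3. Every 1,25D array was below every control array, with a gap of 0.26 on the log2 scale between the nearest arrays of the groups. Groups that did not overlap with 1,25D lower were found for 1.52% of all genes. The mean log2 intensity was 8.36 ± 0.09 in 1,25D and 8.76 ± 0.07 in control cultures (SD, n = 3 each). The log2 difference was -0.40 ± 0.10 (SE), with a 95% interval of -0.62 to -0.17. In the pairs it was -0.53, -0.26 and -0.40, so the direction was the same in all 3 pairs. Over all genes 11% were lower in all 3 pairs. The limma adjusted p was 1.00 without the block and 0.427 with it, and the unadjusted p was 0.0037 and 0.0029. Chrna4 was already known to be among the lower genes of this contrast when the family was chosen, so its difference is a description and carries no independent support. With 3 arrays against 3 the smallest two-sided p of an exact permutation test is 0.1.

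Chrnb2, which encodes the beta2 partner of alpha4, had intensities of 277, 295 and 286 in 1,25D cultures, against 208, 278 and 273 in control cultures. Control 1 was low and the other 2 control arrays lay close to the 1,25D arrays, so the groups overlapped at their edge, where 1,25D 1 and control 2 were almost equal. The log2 difference was 0.19 ± 0.13 (SE), with a 95% interval of -0.11 to 0.49. In the pairs it was 0.41, 0.09 and 0.07. Chrnb2 was thus higher in each of the 3 pairs, as were 14.8% of all genes, while Chrna4 was lower in each. Without control 1 the log2 difference of Chrnb2 was 0.05, while that of Chrna4 was -0.38. The difference between the responses of both genes was not tested.

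**Figure D2:**
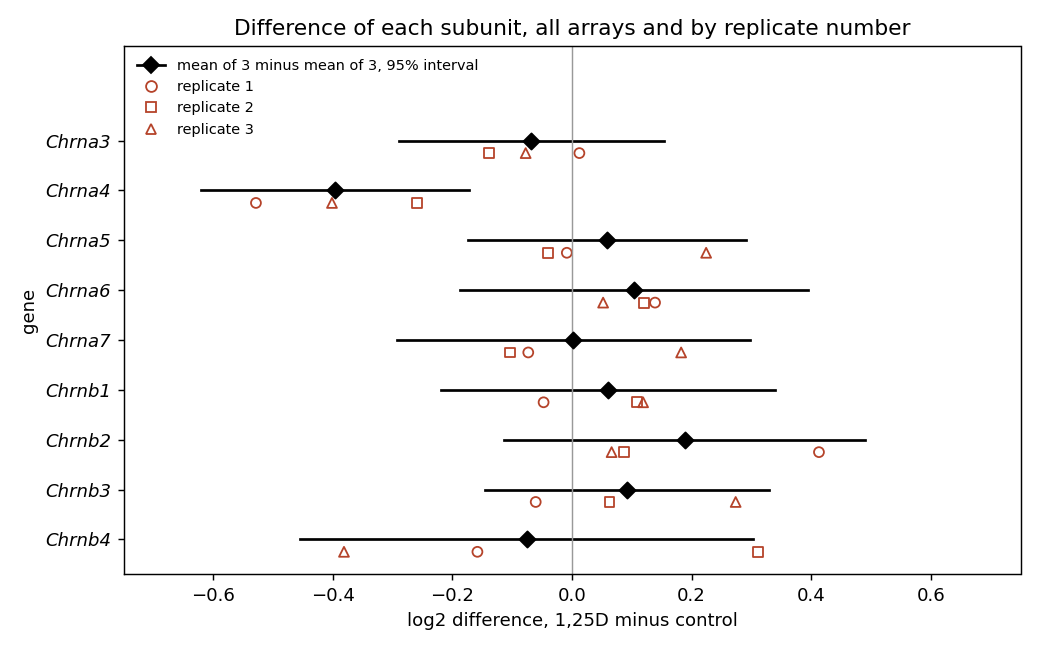
Log2 difference of each subunit, 1,25D minus control (horizontal axis). Diamonds with lines are the difference of means over 3 against 3 arrays with its 95% interval, and open symbols are the differences within replicate numbers; the interval of Chrna4 lies below 0 and the other 8 intervals hold 0.

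Chrna7 encodes alpha7, which forms channels alone and passes much calcium. It had intensities of 204, 228 and 270 in 1,25D cultures, against 214, 245 and 238 in control cultures. The groups overlapped fully, with the highest value in 1,25D 3 and the lowest in 1,25D 1. The log2 difference was 0.0018 ± 0.13 (SE), with a 95% interval of -0.29 to 0.30, and the pairs gave -0.07, -0.10 and 0.18. Its sign was not fixed: quantile normalisation turned the difference to -0.010 and median centring to -0.0064.

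Chrna3, Chrna5 and Chrnb4 are neighbours on chromosome 9 and together supply the receptor of autonomic ganglia, where alpha3 and beta4 form the channel and alpha5 is an accessory subunit. In the brain they are best known from the medial habenula. Chrnb4 had intensities of 213, 202 and 175 in 1,25D cultures, against 238, 163 and 228 in control cultures. The controls were spread more widely than the treated arrays, with control 2 the lowest of all 6. Its log2 difference was -0.08 ± 0.16 (SE, 95% interval -0.45 to 0.30), and the pairs gave -0.16, 0.31 and -0.38, so they disagreed in sign. Without control 1 its log2 difference was 0.03. Chrna3 had intensities of 89.0, 91.9 and 87.6 in 1,25D cultures, against 88.2, 101.1 and 92.4 in control cultures. Its log2 difference was -0.07 ± 0.10 (SE), with pair values of 0.01, -0.14 and -0.08. Chrna5 had intensities of 56.7, 54.3 and 64.1 in 1,25D cultures, against 57.1, 55.8 and 54.9 in control cultures. Treated array 3 stood above the other 5 arrays, and the log2 difference was 0.06 ± 0.10 (SE), with pair values of -0.01, -0.04 and 0.22. Without that array the difference was -0.011. The 3 neighbours thus showed no shared direction in any pair.

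Chrna6 and Chrnb3 are also neighbours, on chromosome 8, and their subunits are typical of dopamine neurons of the midbrain, where alpha6 and beta3 join in 1 receptor. Chrna6 had intensities of 82.4, 66.0 and 71.4 in 1,25D cultures, against 74.9, 60.7 and 68.8 in control cultures. The order of the replicate numbers was the same in both groups, 1 highest and 2 lowest, and each treated array was above its control. The pair differences were 0.14, 0.12 and 0.05, and the log2 difference over all arrays was 0.10 ± 0.13 (SE, 95% interval -0.19 to 0.40). Chrnb3 had intensities of 90.8, 88.9 and 97.0 in 1,25D cultures, against 94.7, 85.1 and 80.2 in control cultures. Its log2 difference was 0.09 ± 0.10 (SE), with pair values of -0.06, 0.06 and 0.27. Of 8 markers of midbrain dopamine neurons, 0 passed, with summed intensities of 1350 to 1492 in 1,25D and 1331 to 1453 in control cultures. Th, the enzyme that commits cells to dopamine synthesis, had intensities of 171, 177 and 154 in 1,25D and 171, 158 and 192 in control cultures. Its values in the arrays numbered 1 were identical, so its pair 1 difference is 0.

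Chrnb1 encodes beta1, the beta subunit of the receptor at the nerve-muscle junction. It had intensities of 165, 171 and 204 in 1,25D cultures, against 170, 158 and 188 in control cultures, so array 3 was the highest in both groups. Its log2 difference was 0.06 ± 0.12 (SE), with a 95% interval of -0.22 to 0.34 and pair values of -0.05, 0.11 and 0.12. Skeletal muscle markers, a list of 10 measured genes with none called, had summed intensities of 1585 to 1682 in 1,25D and 1507 to 1669 in control cultures. The muscle regulator Myod1 had intensities of 155 to 181 in 1,25D and 142 to 177 in control cultures.

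Standard errors of the family lay between 0.10 and 0.16. They are moderated by limma, which draws the spread of each gene toward that of all genes, so their likeness is partly set by the fit. The SD of the 3 control arrays ran from 0.03 for Chrna5 to 0.30 for Chrnb4. For the 8 subunits other than Chrna4 the 95% intervals reached from -0.45 (0.730-fold) to 0.49 (1.405-fold). These ends come from different genes, Chrnb4 (-0.45 to 0.30) and Chrnb2 (-0.11 to 0.49). The interval of no subunit spans the whole range. In 1,25D the summed intensity of all 9 subunits was 1485 to 1594, against 1558 to 1671 in control cultures. The sum includes Chrna4, at 307 to 344 in 1,25D and 412 to 448 in control cultures. Of the other 8 subunits, 6 had log2 differences above 0, beside 10563 of all 19938 genes. Intensities depend on the probes, so bright rows weigh most in the sum. Dimness limits 4 members, since Chrna3, Chrna5, Chrna6 and Chrnb3 had means below the lower quartile of all genes.

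A comparison that did not enter the choice of the family is the one between replicate numbers, over both groups. It called 0 of the 9 subunits (limma F-test with treatment in the model, adjusted p under 0.05), beside 1.73% of all genes. At an unadjusted p under 0.05 the limma F-test gave 1 subunit, Chrna6 (adjusted p = 0.147), beside 29.5% of all genes. The mean log2 intensity of Chrna6 over both groups was 6.30, 5.98 and 6.13 for numbers 1, 2 and 3. For Chrna4 these means were 8.53, 8.56 and 8.61 (adjusted p = 0.816). By contrast, 3 of 8 neuron markers were called, among them Dcx, a microtubule protein of young neurons, at 6.81, 8.95 and 9.57 (adjusted p = 0.0106). Dcx intensities in the arrays numbered 1, 2 and 3 were 110, 447 and 866 in 1,25D and 114, 547 and 669 in control cultures. Among the subunits the widest spread of such means was that of Chrnb4, at 7.81, 7.50 and 7.64 (adjusted p = 0.386).

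Over 10 lists of cell type markers with 77 measured genes, 0 passed between 1,25D and control, and the list medians lay between -0.08 and 0.08. The lowest median was that of the astrocyte list, whose 8 markers all had log2 differences below 0, from -0.27 to -0.0076. Of 8 microglia markers, 7 were above 0, and the list median was 0.06. The marker with the largest difference was Pdgfrb, a growth factor receptor of pericytes, at 0.48 ± 0.20 (SE), with pair values of 0.47, 0.39 and 0.60 and a limma adjusted p of 1.00 (0.230 in the blocked fit). Col1a1, a collagen of fibroblasts, was at 0.42 ± 0.18 (SE) with groups that did not overlap. Both belong to a list of 7 meningeal fibroblast and pericyte markers, whose median was 0.05. Of the 7, 5 were above 0 and 2 below, with Acta2 lowest at -0.20. In all, the groups did not overlap for 4 of the 77 markers, beside 4.15% of all genes. Of the 4, 3 were higher in 1,25D, beside 2.63% of all genes. An unadjusted limma p under 0.05 was found for 2 markers, beside 1.48% of all genes. With the block it was found for 6, beside 1152 of all 19938 genes. In bulk RNA, fewer neurons and less RNA per neuron cannot be told apart, so the 8 neuron markers are given beside Chrna4. None passed between 1,25D and control, their median log2 difference was -0.06, and 6 of 8 were below 0. Their summed intensity was 2205 to 4543 in 1,25D and 2801 to 4594 in control cultures. Rbfox3, the nuclear marker of mature neurons, had intensities of 152, 179 and 184 in 1,25D cultures, against 190, 214 and 253 in control cultures. Like Chrna4 it was lower in every 1,25D array than in any control, with a log2 difference of -0.34 ± 0.14 (SE) and pair values of -0.32, -0.25 and -0.46. It did not pass (limma adjusted p = 1.00 without the block). Map2 had pair values of -0.52, -0.33 and -0.02. Tubb3, a tubulin of neurons, had pair values of -0.33, -0.28 and 0.47, and Snap25, a synaptic vesicle fusion protein, of -0.21, -0.12 and 0.24. The part of neuron content in the Chrna4 difference was not tested. Over the whole list, 6 of the 8 neuron markers were below 0 in pair 1 and the other 2 had equal values, 7 were below 0 in pair 2 and 3 in pair 3. In pair 3, where Chrna4 was at -0.40, the log2 differences of the 8 ran from -0.63 for Stmn2 to 0.47 for Tubb3. The lists of single neuron types had more markers above 0 than below over all arrays. Above 0 were 7 of 9 GABA neuron markers (list median 0.07) and 4 of 6 glutamate neuron markers (0.05). The same held for 5 of 8 markers of midbrain dopamine neurons (0.07). Of all 19938 genes, 10563 were above 0. In the glutamate list 3 markers were below the lower quartile, and 3 had identical values in the arrays numbered 1.

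**Figure D3:**
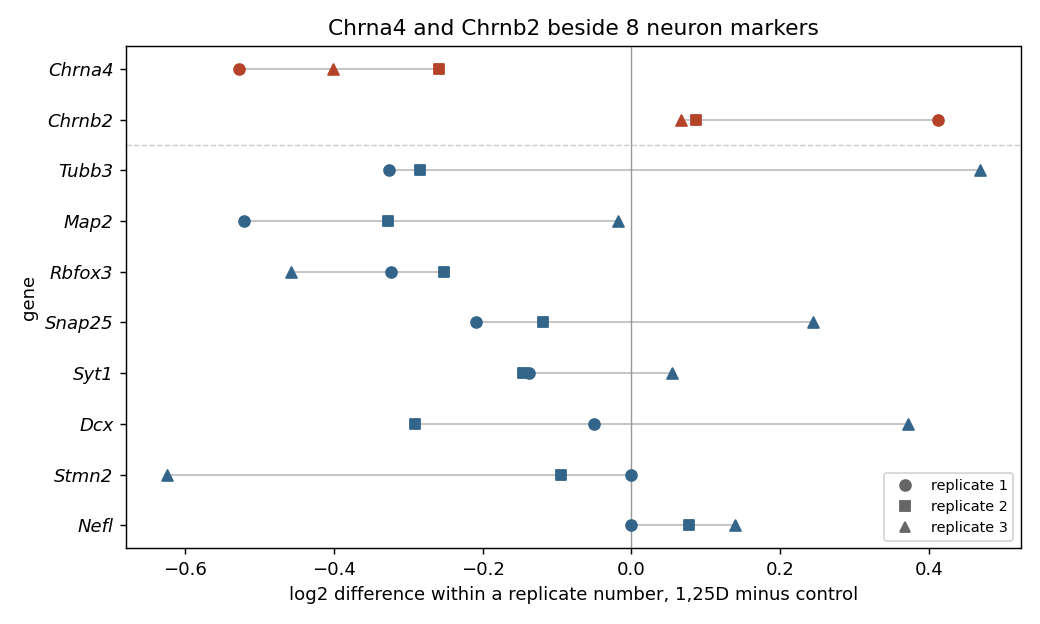
Log2 difference within each replicate number, 1,25D minus control (horizontal axis), for Chrna4 and Chrnb2 (red, top) and 8 neuron markers (blue); grey lines span the 3 values of a gene. Chrna4 and Rbfox3 are below 0 in all 3 pairs by at least 0.25, and in pair 3 the neuron markers divide into 5 above 0 and 3 below.

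Across the genes that work with these receptors, 0 of 66 measured partner genes passed in either direction, without or with the block (72 were listed). Their median log2 difference was -0.0087, beside 0.0074 over all genes. The groups did not overlap for 5 of the 66, beside 4.15% of all genes. Of the 5, 3 were higher and 2 lower, beside 2.63% of all genes higher and 1.52% lower. Those 5 genes are Rapsn, Slc18a3, Chrng, Stoml3 and Ywhah.

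Of 11 measured genes of postsynaptic clustering, 0 passed and 4 were above 0. Rapsn encodes rapsyn, the scaffold that gathers nicotinic receptors at the nerve-muscle junction, and had the largest difference of all partners. Its intensity was 197, 222 and 226 in 1,25D cultures, against 156, 161 and 138 in control cultures. All 1,25D arrays lay above all control arrays. The log2 difference was 0.51 ± 0.11 (SE, 95% interval 0.25 to 0.76), with pair values of 0.34, 0.46 and 0.72. Its limma adjusted p was 0.982 without the block and 0.325 with it. Lrp4, the receptor for agrin in muscle, came next in this list with a log2 difference of 0.13 ± 0.10 (SE). Agrn, agrin itself, and Musk, the kinase it activates, had log2 differences of 0.05 and -0.06.

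Among 10 genes of acetylcholine synthesis, transport and breakdown, 0 passed and 5 were above 0. Slc18a3 encodes the vesicular acetylcholine transporter, and had intensities of 213, 206 and 182 in 1,25D cultures, against 180, 157 and 156 in control cultures. The groups nearly met, at 1,25D 3 and control 1, but did not overlap. Its log2 difference was 0.29 ± 0.11 (SE), with pair values of 0.24, 0.39 and 0.22 and a limma adjusted p of 1.00 without the block. Chat, the enzyme that makes acetylcholine and whose gene contains Slc18a3, had a log2 difference of -0.02 ± 0.13 (SE). Slc44a2, a choline transporter, had a log2 difference of -0.13 ± 0.14, and Ache, acetylcholinesterase, of -0.08 ± 0.09 (SE).

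**Figure D4:**
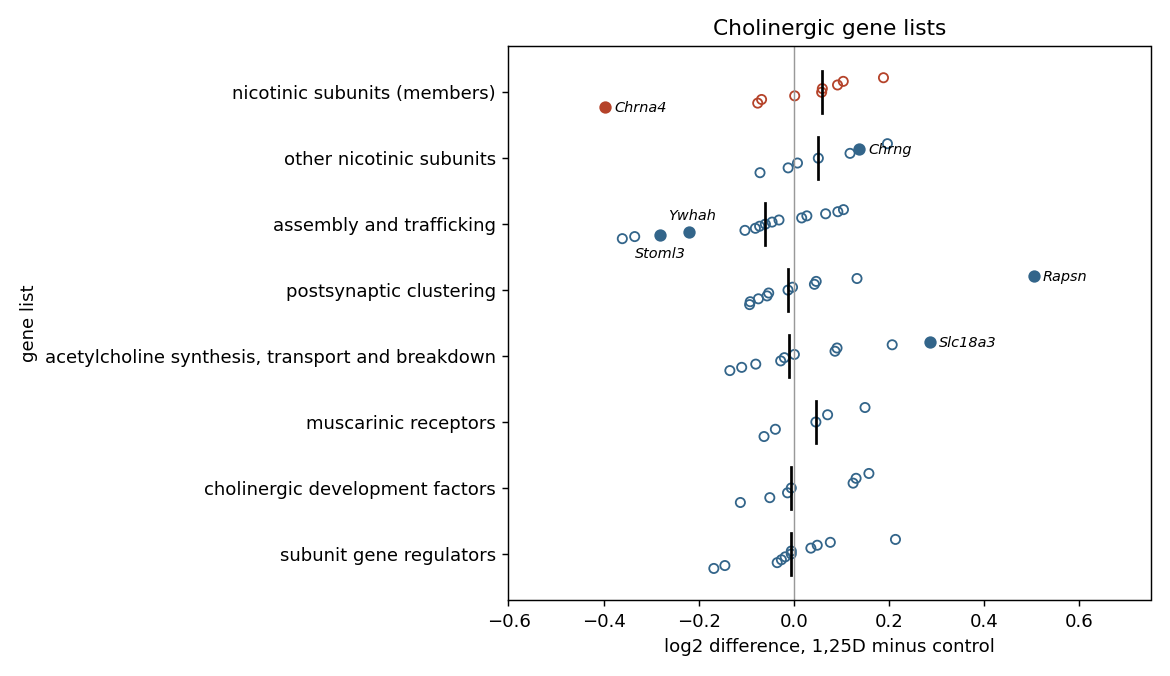
Log2 difference, 1,25D minus control (horizontal axis), of the 9 subunits (red) and of 66 partner genes by list (blue). Filled points with names are genes whose groups do not overlap, open points the others, and black bars list medians; Chrna4 lies at -0.40 and Rapsn at 0.51.

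Of 15 measured genes of receptor assembly and trafficking, 0 passed and 10 were below 0, with a median log2 difference of -0.06. Stoml3, a membrane protein of the stomatin family, had intensities of 92.2, 92.7 and 89.8 in 1,25D cultures, against 103, 112 and 118 in control cultures. Its groups did not overlap, and its log2 difference was -0.28 ± 0.09 (SE, limma adjusted p = 1.00 without the block), from a dim row below the lower quartile. Ly6e, a small surface protein of the Ly6 family, had a log2 difference of -0.33 ± 0.16 (SE) with overlapping groups. Ywhah, a 14-3-3 protein, belongs to a family of which a member is known to bind alpha4. It had intensities of 2389, 2296 and 2455 in 1,25D cultures, against 2758, 2457 and 3140 in control cultures. The groups nearly met, at 1,25D 3 and control 2, and the log2 difference was -0.22 ± 0.11 (SE). Ric3 and Tmem35a, chaperones needed for alpha7 assembly, had log2 differences of -0.06 ± 0.11 and -0.07 ± 0.11 (SE).

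The 7 other nicotinic subunits, of muscle and of the inner ear among others, gave 0 calls and a median log2 difference of 0.05. Chrng, the fetal muscle subunit gamma, had intensities of 187, 179 and 171 in 1,25D cultures, against 166, 166 and 157 in control cultures. The log2 difference was 0.14 ± 0.09 (SE), and the groups did not overlap. Chrne, the adult muscle subunit epsilon, had a log2 difference of 0.20 ± 0.11 (SE), with pair values of 0.20, 0.20 and 0.19. The 5 muscarinic receptors, which answer acetylcholine through G proteins, had a median of 0.05 with Chrm5 at 0.15 ± 0.15 and Chrm1 at 0.07 ± 0.10 (SE). In the list of cholinergic development, 0 of 7 passed, with Mnx1 at 0.13 ± 0.10 and Gbx1 at 0.16 ± 0.13 (SE). In the list of subunit gene regulators, 0 of 11 passed, with Etv4 at 0.21 ± 0.14 and Rest, a repressor of neuronal genes, at -0.17 ± 0.12 (SE).

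Over the 6 arrays, the genes whose log2 intensity followed that of Chrna4 most closely, of 14952 compared, were Clstn2, Cap2, Mad2l1, Cacna2d3 and Cndp2. Their Pearson correlations with Chrna4 were 0.988, 0.985, 0.973, 0.967 and 0.963, each over 6 arrays that share the 2 groups and the 3 replicate numbers. All 5 were lower in 1,25D, with log2 differences of -0.36, -0.32, -0.13, -0.12 and -0.11. The highest correlations among so many genes are high by selection. As the Chrna4 groups did not overlap, genes that follow it this closely are lower in 1,25D by selection too. Their shared direction therefore carries no support. Clstn2 encodes calsyntenin 2, a synaptic membrane protein, and had intensities of 271, 308 and 316 in 1,25D cultures, against 384, 372 and 392 in control cultures. Chrna4 was also the subunit with the largest SD over the 6 arrays, at 0.23, where the smallest was 0.08.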

How the data were processed

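The deposited intensity values are the authors' RMA output, for which the submitters' processing notes name Affymetrix Expression Console. Its version, the probe set level, any filter and the genome build are not stated in the sources used here. The table held 35556 rows, of which 21789 had 1 gene symbol in GEO's platform annotation, 1621 several and 12146 none here. They stood for 19938 genes. The intensities ran from 8.05 to 22019 on a linear scale, so log2 was taken. Differences of 1,25D minus control were fitted in limma 3.58.1 under R 4.3.3 (lmFit and eBayes without a trend, no filter on dim genes, two-sided), with Benjamini-Hochberg adjustment over 19938 genes and a threshold of 0.05. The labels do not pair arrays; equal replicate numbers correlated above 0.1 in all 3 pairs, so a blocked fit on that number stands beside the unblocked one. An F-test of the replicate number kept treatment in the model. The fits were run on simulated data with known changes, as a check of the code. The simulated replicate spread was set alike for all genes, so this does not measure power or false calls in these data. The number of arrays limits the precision.

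The subunits, the 7 partner lists, the 10 marker lists and the tests were chosen with earlier results of these data known. Named were all 9 subunits, the 2 partners per list with the smallest p (or any called), and the 5 genes most correlated with Chrna4; Ywhah, Agrn, Musk, Chat, Ache, Ric3, Tmem35a and the single cell type markers were named after their values were seen. Promoter windows and gene neighbours came from RefSeq (GRCm38.p6).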

Additional observations from a re-analysis of the deposited data

How the results depend on the processing

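In each of 20 alternatives to the fit, 0 subunits and 0 partners passed between 1,25D and control. In 15 alternatives 0 subunits passed between replicate numbers. Without the dimmest 25% of genes, 5 of the 9 subunits and 53 of the 66 partners were left to test. At an unadjusted limma p under 0.05 there were 3 partners (295 of all genes), 8 with the replicate block (1152 of all genes), and 2 to 10 over the alternatives. Chrna4 kept its direction in all 20, between -0.465 and -0.330, with adjusted p between 0.221 and 1.00. Its groups did not overlap, so omitting an array or a pair could not have reversed the sign. The constant direction therefore adds no support. The replicate block left every difference as it was and changed no call of a subunit or partner. Direction changed for Chrna7 after quantile normalisation (-0.010, also -0.010 with the replicate block), median centring (-0.0064) and array weights (-0.013). Omitting single arrays gave ranges of -0.107 to 0.096 for Chrna7, -0.011 to 0.109 for Chrna5, 0.016 to 0.176 for Chrna6, -0.112 to -0.013 for Chrna3, 0.038 to 0.158 for Chrnb3, 0.054 to 0.261 for Chrnb2, -0.034 to 0.124 for Chrnb1 and -0.248 to 0.026 for Chrnb4. Omitting a pair in the replicate block gave -0.089 to 0.055 for Chrna7, -0.024 to 0.108 for Chrna5, 0.00097 to 0.168 for Chrnb3 and -0.270 to 0.077 for Chrnb4. The median of the subunits ranged from -0.011 to 0.094.

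Over all genes, 5 were called for treatment. With the replicate block there were 18, and 10 with the block and quantile normalisation, which was added after seeing the data. Quantile normalisation alone gave 3, and limma over every row, with a gene name or without, called 0 (521 had an unadjusted p under 0.05). Omitting single arrays gave 0 to 2, with 0 without control replicate 3 (567 unadjusted) and without 1,25D replicate 3 (494 unadjusted). In the replicate block there were 40 without replicate 1, 3 without replicate 2 and 45 without replicate 3. For the replicate number, 345 genes were called, against 88 after quantile normalisation, 227 without the dimmest 25% of genes, 927 with array weights, 143 with a pseudocount of 16, and 0 over all rows (9401 unadjusted). Omitting single arrays gave 0 to 2267, with 0 without control replicate 2 or 1,25D replicate 2. The causes were not tested. RMA compresses differences of the 4 dim subunits.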

Other observations

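The arrays numbered 1 of the 2 groups held exactly the same value for 1094 genes (5.49% of those tested), against 2 genes for the arrays numbered 2 and 5 genes for those numbered 3. None of the 9 subunits and none of the 66 partners was among them, while 8 of the 77 cell type markers were, which fixes their difference in pair 1 at 0. These are 2 of the 8 neuron markers, Stmn2 and Nefl, 3 of 6 glutamate neuron markers, Tbr1, Neurod2 and Bcl11b, and Th, Cdh5 and Actn2. A repeat without these genes, added after seeing the data, called 0 of the 9 subunits. The log2 difference of Chrna4 stayed at -0.40, as it had to, since leaving out other genes cannot change it.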
